A study of Mus musculus with 24 samples.

Results

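The comparison sets bone-marrow-derived dendritic cells labelled IRE1 KO and stimulated with zymosan against bone-marrow-derived dendritic cells labelled IRE1 WT and stimulated with zymosan, across all genes of an mRNA sequencing count table. It uses 8 of the study's 24 samples, 4 KO and 4 WT; the other 16 are untreated and LPS-stimulated samples of both genotypes, 4 in each of the 4 groups, and they enter only where they are named. The study's title asks how IRE1α and XBP1 in leukocytes bear on prostaglandin synthesis and pain. The labels give no allele, Cre driver, strain, age, zymosan dose or stimulation time, and they do not say whether the replicates were separate mice or cultures, so the p-values measure the spread between these samples, which may be technical.

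IRE1α, the product of Ern1, is a kinase and ribonuclease in the membrane of the endoplasmic reticulum (ER) that is switched on when unfolded protein builds up. Its ribonuclease cuts a short intron out of Xbp1 mRNA in the cytosol, and the spliced mRNA encodes XBP1s, a transcription factor that raises genes for protein entry into the ER, folding, glycosylation, disposal of misfolded protein and transport to the Golgi. The same ribonuclease can cleave other mRNAs, a process called regulated IRE1-dependent decay. Zymosan is a yeast cell wall preparation that dendritic cells sense through Dectin-1 and Toll-like receptor 2, and it makes them release cytokines and prostaglandin E2.

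The Xbp1 site is shown because splicing there is the direct readout of IRE1α activity, and gene-level counts do not report it. In the 2129-base transcript, bases 815 to 840 are the 26 bases that splicing removes. They stand in capitals, with the 24 bases before and after them in lower case:
Xbp1: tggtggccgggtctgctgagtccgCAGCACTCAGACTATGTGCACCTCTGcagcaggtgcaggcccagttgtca

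Ern1 mRNA was not lower in the samples labelled KO. Ern1 (chr11:106394650-106487852, minus strand, GRCm38) measured 39.2, 38.6, 36.2 and 35.6 CPM (counts per 1000000 counts of the normalised library size) in the KO-labelled samples, against 30.7, 30.3, 30.3 and 29.5 CPM in the WT samples. All 4 KO-labelled samples were above all 4 WT samples. The log2 fold change, KO over WT, was 0.31 ± 0.05 (SE; adjusted p = 6.48e-05, edgeR quasi-likelihood test). The labels give no allele, and exons were not counted apart. If a deletion removed only some exons, reads over the others would remain, so a whole-gene count checks neither the label nor the protein. Why Ern1 was higher was not tested, and the samples are called KO-labelled throughout. Xbp1 (chr11:5520659-5525893, plus strand) measured 209, 211, 202 and 194 CPM in KO-labelled samples and 230, 228, 203 and 209 CPM in WT samples. The Xbp1 groups overlapped and did not pass the test (log2 -0.09 ± 0.05, adjusted p = 0.176), while in replicates 1 and 2 alone Xbp1 was lower (log2 -0.13, adjusted p = 0.0137); spliced and unspliced Xbp1 are counted together here.

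Total counts ran between 32223256 and 41698895 in the KO-labelled samples and between 35810219 and 45720878 in the WT samples. Replicates 1 and 2 of a group, and replicates 3 and 4, were closer to each other than other replicates of the same group: a chi-square of their counts per gene was 2.18 to 5.68 within these 4 pairs, against 13.1 to 20.6 in the other 8 pairs. They still differed by more than counting noise and were kept as separate samples; counts that rest on this choice are also given with each pair summed, which leaves 2 sums a group. Summed markers of conventional dendritic cells were at 2422 to 2726 CPM in KO-labelled and 2506 to 2695 CPM in WT samples. Summed eosinophil markers were at 70.8 to 81.4 CPM in KO-labelled and 976 to 1315 CPM in WT samples, and the role of that difference in the results below was not tested.

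Across the 14188 genes with enough counts to test, 1510 were higher in KO-labelled cells (10.6%) and 1624 were lower (11.4%) at an adjusted p under 0.05, 22.1% in either direction. Most differences were small. The median absolute log2 fold change of the called genes was 0.31, and 72 genes were higher and 151 lower by more than 2-fold. The 4 KO-labelled samples lay wholly above or below the 4 WT samples for 20.8% of all genes tested (9.78% above, 11.0% below). With the alike replicates summed, 394 genes were higher and 570 lower of 15378 tested. Of these, 98.2% were called the same way in the 4-against-4 comparison, but only 30.2% of the genes called in that comparison were called again with pairs summed.

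**Figure D1:**
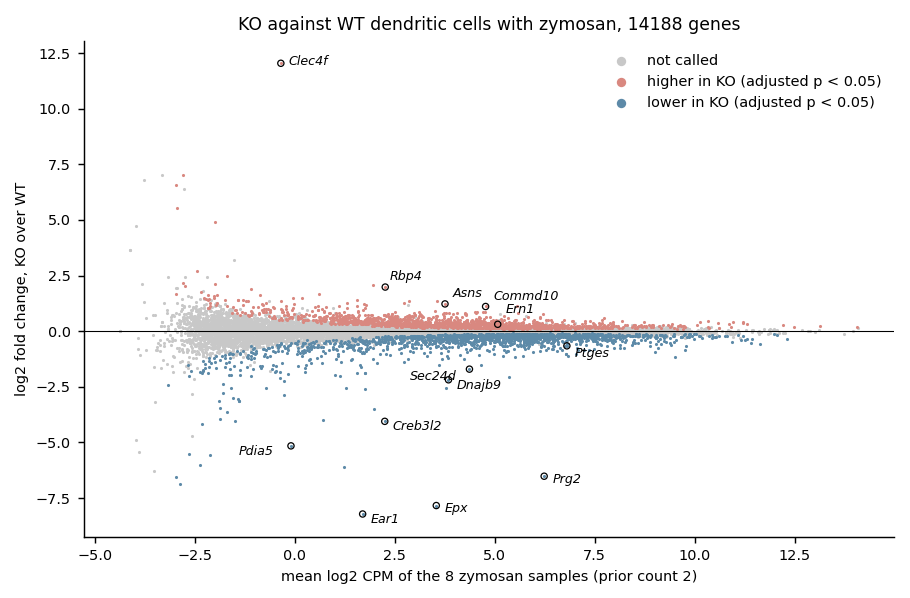
Log2 fold change of every tested gene, KO-labelled over WT with zymosan (vertical axis), against its mean level in log2 CPM (horizontal axis). Red and blue points passed an adjusted p under 0.05, and circled genes are named; Ear1, Epx, Prg2, Creb3l2 and Pdia5 lie far below 0, and Clec4f, whose fitted value is no bound because it had no count in the WT samples, lies far above it.

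Genes of the secretory pathway were mostly lower in each of the ER lists examined. In 6 lists that follow a protein through the ER (entry, chaperones, disulfide isomerases, N-glycosylation, disposal, transport to the Golgi), 106 of 142 tested genes were lower in KO-labelled cells (74.6%), 3 were higher and 33 did not pass the test, with a median log2 fold change of -0.33 against 0.00 for all genes tested. Outside the ER, the lists of PERK-ATF4 targets and cytosolic tRNA synthetases had more higher than lower genes. The cytokine, chemokine and NF-κB lists had more lower than higher genes. Each list count below is to be read beside the shares over all genes tested, 11.4% lower and 10.6% higher. The matching shares without overlap were 11.0% with KO-labelled samples below and 9.78% with them above.

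**Figure D2:**
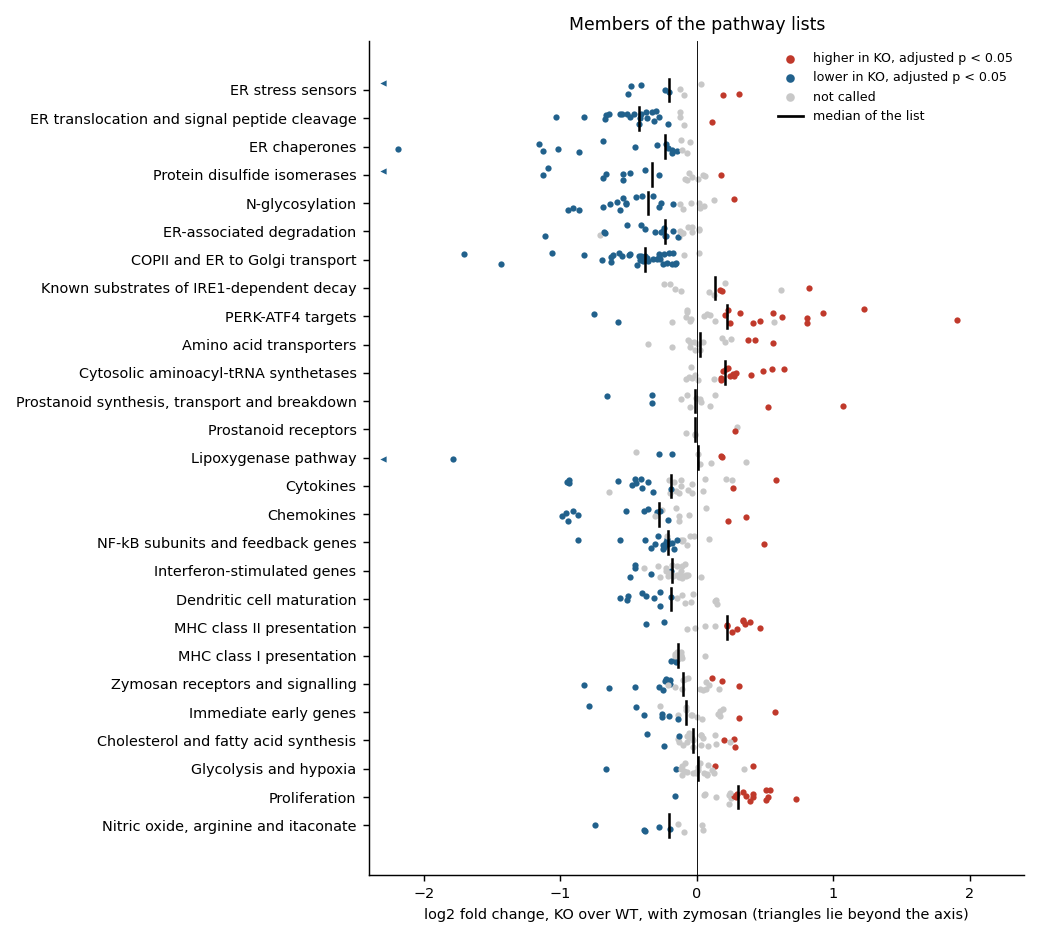
Log2 fold change, KO-labelled over WT with zymosan (horizontal axis), of every tested member of each gene list (rows); red and blue points passed an adjusted p under 0.05, grey points did not, triangles lie beyond the axis and the bar marks the list median. The ER lists lie left of 0 with medians between -0.42 and -0.23, and the tRNA synthetase, PERK-ATF4, MHC class II and proliferation lists lie right of it with medians between 0.21 and 0.30.

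Among the membrane-bound stress sensors and transcription factors, 6 of 11 tested genes were lower and 2 were higher. Creb3l2 (chr6:37327255-37442146, minus strand) encodes a membrane-bound transcription factor that, once released, raises secretory pathway genes. It measured 1.31, 1.30, 0.813 and 1.14 CPM in KO-labelled samples, against 18.9, 18.8, 20.1 and 19.2 CPM in WT samples. The groups were far apart: Creb3l2 was 16.6-fold lower in KO-labelled cells (log2 -4.05 ± 0.12, adjusted p = 3.89e-18). Eif2ak3, which encodes the stress sensor PERK, averaged 10.5 ± 0.509 CPM in KO-labelled and 14.9 ± 0.758 CPM in WT samples (SD, n = 4 each; log2 -0.50). Atf6, the third sensor of the ER membrane, and its relative Atf6b fell by 0.48 and 0.41 on the log2 scale. Mbtps2, a protease that releases ATF6 from the membrane, was higher beside Ern1 (log2 0.19), a call that ended with replicate pairs summed (adjusted p = 0.134) and in replicates 3 and 4 alone (0.219).

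Genes for entry into the ER were lower almost throughout, 20 of 24 with a list median of -0.42, against 11.4% of all genes tested. The 4 KO-labelled samples lay below all WT samples for 21 of the 24, against 11.0% of all genes tested. Spcs2, a subunit of the signal peptidase that trims newly entered proteins, measured 77.2, 76.8, 79.9 and 73.5 CPM in KO-labelled samples and 167, 158, 151 and 152 CPM in WT samples. All KO-labelled samples lay far below all WT samples, and the log2 fold change was -1.03 ± 0.04 (adjusted p = 1.97e-15). Sec61a1, the pore of the translocon, measured 109, 108, 112 and 119 CPM in KO-labelled and 192, 194, 202 and 209 CPM in WT samples (log2 -0.83). Tram1, which helps chains move into the pore, fell by 0.67, and the small translocon subunit Sec61g fell by 0.66. Srp14, a subunit of the signal recognition particle, was the exception at log2 0.11 (adjusted p = 0.0403); that call ended with replicate pairs summed (0.356), in replicates 1 and 2 alone (0.280), with no filter on low counts (0.120), with the zymosan groups fitted alone (0.0988) and without any of WT replicates 3 and 4 and KO-labelled replicates 1, 2 and 4 in turn (0.0664 to 0.126).

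Chaperones were lower in 13 of 17 genes and higher in none, with a median of -0.23, but the general chaperones Hspa5 and Hsp90b1 did not pass the test. Dnajb9, which encodes ERdj4, a co-chaperone that also holds IRE1α inactive, measured 5.73, 6.06, 7.45 and 7.70 CPM in KO-labelled samples and 30.3, 29.2, 30.4 and 32.2 CPM in WT samples. The groups did not overlap, and Dnajb9 was 4.55-fold lower in KO-labelled cells (log2 -2.19 ± 0.09, adjusted p = 2.73e-15). Creld2, a disulfide isomerase-like factor, measured 29.9, 30.0, 29.5 and 31.4 CPM in KO-labelled and 64.1, 66.0, 67.4 and 72.3 CPM in WT samples, 2.23-fold lower. Hyou1, a large chaperone and exchange factor for BiP, fell by 1.13 and Manf, a secreted stress factor, by 1.02 on the log2 scale. Hspa5, which encodes BiP itself, and Hsp90b1, which encodes GRP94, are given although their values had been seen. Hspa5 measured 1569, 1608, 1875 and 1766 CPM in KO-labelled and 1778, 1713, 1809 and 1868 CPM in WT samples, overlapping groups that did not pass the test (log2 -0.07 ± 0.07, adjusted p = 0.512); in replicates 1 and 2 alone it was lower (log2 -0.14, adjusted p = 0.00447). Hsp90b1 was at log2 -0.05 ± 0.05 (adjusted p = 0.544).

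Disulfide isomerases were lower in 10 of 18 genes, with a median of -0.33. Pdia5, a protein disulfide isomerase that acts on ATF6, measured 0.151, 0.213, 0.169 and 0.0277 CPM in KO-labelled samples and 6.17, 5.63, 4.22 and 4.42 CPM in WT samples. It was nearly undetected in KO-labelled samples, 35.7-fold lower (log2 -5.16 ± 0.25, adjusted p = 8.8e-14). Txndc5 and Txndc11, thioredoxin-domain oxidoreductases, fell by 1.12 and 1.09, and Erp44, which returns proteins from the Golgi, fell by 0.69. Tmx4, a membrane-bound member, was higher (log2 0.18, adjusted p = 0.0319), with overlapping groups; the call ended with pairs summed (0.213), in replicates 3 and 4 alone (0.517), with the zymosan groups fitted alone (0.0995) and without KO-labelled replicate 1 or 2 or WT replicate 2 or 4 (0.0646 to 0.147).

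N-glycosylation genes were lower in 16 of 24, with a median of -0.36. Stt3a, a catalytic subunit of the oligosaccharyltransferase, measured 94.9, 96.8, 104 and 102 CPM in KO-labelled and 184, 180, 176 and 185 CPM in WT samples (log2 -0.86 ± 0.04, adjusted p = 1.13e-13). Its partner subunit Ostc fell by 0.94, and Gmppb, which makes GDP-mannose, fell by 0.91. Alg8, a glucosyltransferase of the lipid-linked precursor, was higher with overlapping groups (log2 0.27, adjusted p = 0.0116), and that call ended with pairs summed (0.111), in replicates 3 and 4 alone (0.0977), without WT replicate 2 (0.0515) and without KO-labelled replicate 1 (0.0543).

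ER-associated degradation genes, which send misfolded proteins to the proteasome, were lower in 14 of 24, with a median of -0.23, and in 8 with replicate pairs summed. Selenos, a membrane selenoprotein of the retrotranslocation complex, measured 25.4, 21.8, 27.2 and 26.6 CPM in KO-labelled and 54.5, 53.1, 54.9 and 55.9 CPM in WT samples, groups well apart (log2 -1.11 ± 0.06, adjusted p = 2.31e-12). The ubiquitin ligase Syvn1 fell by 0.68, the mannosidase-like Edem2 by 0.67 and the selenoprotein Selenok by 0.51.

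In transport between ER and Golgi 33 of 35 genes were lower and none was higher, with a median of -0.38. Also for 33 of 35, all 4 KO-labelled samples lay below all 4 WT samples, against 11.0% of all genes tested. Sec24d, a cargo adaptor of the COPII coat, measured 10.7, 10.7, 12.1 and 12.3 CPM in KO-labelled and 34.6, 33.3, 39.0 and 42.0 CPM in WT samples. It was 3.26-fold lower (log2 -1.71 ± 0.10, adjusted p = 1.11e-12). Kdelr3, a receptor that returns ER proteins, fell by 1.44 at a low level, the SNARE protein Bet1 by 1.06 and the coat subunit Sec23b by 0.83.

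**Figure D3:**
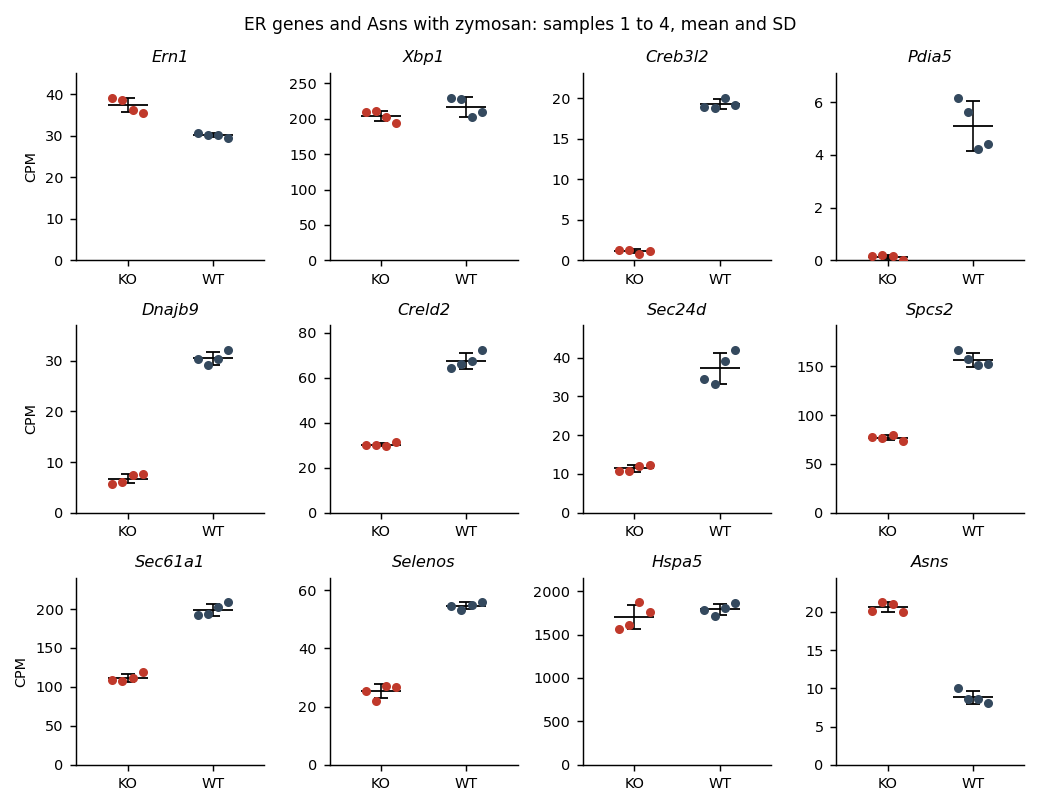
Level in CPM (vertical axis, from 0, a scale for each gene) of 11 ER genes and Asns in each zymosan sample, KO-labelled left and WT right, replicates 1 to 4 in order; lines are the mean and SD of 4 samples. Creb3l2, Pdia5, Dnajb9, Creld2, Sec24d, Spcs2, Sec61a1 and Selenos are lower and Ern1 and Asns higher in every KO-labelled sample, while Xbp1 and Hspa5 overlap between groups.

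The promoters of Dnajb9, Sec24d and Creld2 are shown because they hold the motifs that XBP1 and ATF6 are known to bind, with the motif in capitals. The sequences are the 250 bases before the RefSeq transcription start (GRCm38.p6), written 5′ to 3′ on the gene's strand. Dnajb9 (chr12:44210069-44210318, minus strand) holds the core CCACGT 108 bases before the start. Sec24d (chr3:123267246-123267495, plus strand) holds TGACGTGG, the unfolded protein response element (UPRE), 26 bases before the start. Creld2 (chr15:88819396-88819645, plus strand) holds an ER stress response element (ERSE), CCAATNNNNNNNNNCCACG, read on the other strand, 126 bases before the start:
Dnajb9: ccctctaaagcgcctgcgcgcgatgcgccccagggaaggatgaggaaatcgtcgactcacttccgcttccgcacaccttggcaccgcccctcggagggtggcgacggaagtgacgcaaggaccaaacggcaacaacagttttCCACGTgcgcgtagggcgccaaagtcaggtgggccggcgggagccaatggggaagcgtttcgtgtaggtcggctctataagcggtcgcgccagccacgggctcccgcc
Sec24d: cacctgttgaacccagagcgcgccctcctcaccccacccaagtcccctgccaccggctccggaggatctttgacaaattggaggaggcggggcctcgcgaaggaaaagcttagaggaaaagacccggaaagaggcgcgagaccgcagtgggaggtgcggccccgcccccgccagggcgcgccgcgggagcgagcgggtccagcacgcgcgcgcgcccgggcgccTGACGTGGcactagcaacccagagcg
Creld2: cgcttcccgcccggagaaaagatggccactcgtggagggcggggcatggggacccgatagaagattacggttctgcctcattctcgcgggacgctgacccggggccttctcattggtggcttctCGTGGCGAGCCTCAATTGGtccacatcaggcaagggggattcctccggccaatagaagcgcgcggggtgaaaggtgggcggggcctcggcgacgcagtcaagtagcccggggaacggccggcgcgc

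The motifs were counted on both strands in RefSeq windows that run from 250 bases before to 50 bases after each start. UPRE holds CCACGT on its other strand, so every UPRE match is also a CCACGT match. RefSeq windows were found for 85 of the 106 lower ER genes, 97 windows in all. CCACGT stood in 40.2% of those windows, against 14.3% of the windows of all genes called lower, 12.2% of the windows of genes called higher, 11.0% of the windows of all genes tested and 8.31% of all 32851 windows in the table. UPRE stood in 10.3% of the windows of lower ER genes, 0.843% of those of all genes tested and 0.676% of all windows. ERSE stood in 7.22%, 0.128% and 0.119% of the same 3 sets. These shares describe letters and show neither binding nor a cause. The ER lists were written from secretory pathway genes, the kind that XBP1s is known to raise. ER genes that were not lower were not counted as a set of their own. The higher shares are therefore no test of XBP1 or ATF6 activity in these samples.

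Of 11 tested known substrates of IRE1-dependent decay, 3 were higher and none was lower. Among all genes tested 10.6% were higher and 11.4% lower. The list median was 0.13, against 0.00 for all genes tested, and with replicate pairs summed no substrate passed. Bloc1s1, a subunit of a lysosome positioning complex and a well known substrate, measured 24.5, 25.4, 23.9 and 24.3 CPM in KO-labelled and 22.1, 22.4, 21.9 and 21.1 CPM in WT samples. The Bloc1s1 groups did not overlap, at log2 0.17 ± 0.05 (adjusted p = 0.0212; 0.241 with pairs summed, 0.0732 without KO-labelled replicate 2 and 0.0661 without WT replicate 4). Scara3, a scavenger receptor, was higher with overlapping groups at 2.00 to 3.99 CPM in KO-labelled and 1.45 to 2.03 CPM in WT samples (log2 0.82, adjusted p = 0.00117; 0.0584 summed). Itgb2, a β integrin chain, was at log2 0.18 (adjusted p = 3.47e-04; 0.121 summed).

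Genes that the PERK and ATF4 branch is known to raise were higher in 13 of 26 and lower in 2, with a median of 0.22; with pairs summed 8 were higher and 1 was lower. Asns, asparagine synthetase, measured 20.1, 21.3, 21 and 20.0 CPM in KO-labelled and 10.0, 8.59, 8.60 and 8.06 CPM in WT samples. All KO-labelled samples were above all WT samples, and Asns was 2.34-fold higher (log2 1.23 ± 0.07, adjusted p = 2.62e-12). Cth, which makes cysteine, was 3.74-fold higher at a low level of 0.609 to 0.983 CPM in KO-labelled and 0.151 to 0.301 CPM in WT samples. Phgdh, which opens serine synthesis, and the lipoprotein receptor Vldlr were higher by log2 0.81 and 0.93. Aldh1l2, a mitochondrial folate enzyme, and the stress factor Nupr1 went the other way, falling by 0.75 and 0.58. The Aldh1l2 call ended with pairs summed (adjusted p = 0.0551). The other 11 genes did not pass the test, among them the transcription factors Atf4 and Ddit3 (log2 -0.05 and 0.13). The transcription factor Atf5 was higher (log2 0.625). The Asns promoter is shown because ATF4 and C/EBP proteins are known to bind the motif TGATGNAA, here in capitals 23 bases before the start (chr6:7693210-7693459, minus strand):
Asns: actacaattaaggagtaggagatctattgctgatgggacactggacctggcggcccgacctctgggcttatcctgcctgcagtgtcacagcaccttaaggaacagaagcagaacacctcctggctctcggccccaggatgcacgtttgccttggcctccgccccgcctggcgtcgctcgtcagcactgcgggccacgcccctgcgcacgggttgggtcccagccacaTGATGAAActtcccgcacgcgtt

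Amino acid transporters were higher in 3 of 16, where 10.6% of all genes tested were higher. All 3 were also higher with pairs summed, and the list median was 0.02. Slc1a5, which imports glutamine, averaged 32.4 ± 3.21 CPM in KO-labelled and 22 ± 0.872 CPM in WT samples (log2 0.56). The cationic amino acid transporter Slc7a1 and the glutamine transporter Slc38a1 were higher by 0.43 and 0.37. Cytosolic tRNA synthetases, which load amino acids onto tRNA, were higher in 13 of 20 and lower in none, with a median of 0.21; with pairs summed 6 were higher. Iars, the isoleucine enzyme, measured 32.1, 31.9, 27.5 and 29.8 CPM in KO-labelled and 20.4, 18.9, 18.7 and 19.9 CPM in WT samples. The Iars groups did not overlap (log2 0.64 ± 0.07, adjusted p = 2.07e-07), and Yars, Vars and Farsb, which load tyrosine, valine and phenylalanine, were higher by 0.55, 0.49 and 0.40. In the 25 RefSeq windows of 21 of the 29 genes of these 3 lists that were higher, TGATGNAA stood in 28.0%. It stood in 3.16% of the windows of all genes called higher, 2.33% of those of all genes tested and 3.97% of all windows. Because 1 of the lists was written from genes that ATF4 is known to raise, this share is no test of ATF4 activity in these samples.

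Prostaglandin E2 is made from arachidonic acid that Pla2g4a (cytosolic phospholipase A2) releases, through the cyclooxygenases Ptgs1 (COX-1) and Ptgs2 (COX-2) and the synthases Ptges, Ptges2 and Ptges3. The inducible steps were lower in KO-labelled cells and Ptgs1 was higher. Ptges, the inducible terminal synthase (chr2:30889471-30929863, minus strand), measured 100, 98.0, 79.8 and 78.3 CPM in KO-labelled samples and 140, 146, 137 and 139 CPM in WT samples. The groups did not overlap, and replicates 3 and 4 were lower than 1 and 2 among the KO-labelled samples (log2 -0.66 ± 0.07, adjusted p = 6.7e-08). Ptgs2 (chr1:150100031-150108227, plus strand) measured 1174, 1185, 1414 and 1193 CPM in KO-labelled and 1489, 1456, 1630 and 1654 CPM in WT samples. KO-labelled replicate 3 stood above the other KO-labelled samples but below all WT samples, and the fall of 0.33 on the log2 scale had an adjusted p of 0.0166. That call was lost with pairs summed (0.205), without KO-labelled replicate 1 (0.0543) or 2 (0.0538) and without WT replicate 4 (0.0512).

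Pla2g4a measured 118, 121, 132 and 117 CPM in KO-labelled and 153, 151, 150 and 158 CPM in WT samples, which did not overlap (log2 -0.33 ± 0.06, adjusted p = 1.16e-04). Ptgs1 measured 102, 103, 85.6 and 84.8 CPM in KO-labelled and 70.7, 67.4, 62.4 and 61.9 CPM in WT samples. All KO-labelled samples were higher (log2 0.52 ± 0.07, adjusted p = 1.81e-06). The constitutive synthases Ptges2 and Ptges3 overlapped between groups and did not pass the test, at -0.11 ± 0.07 (adjusted p = 0.281) and -0.07 ± 0.05 (adjusted p = 0.349). In the whole list of synthesis, transport and breakdown, 3 of 13 genes were lower and 2 higher, with a median of -0.01. Beside Ptgs1 the other higher gene was Ptgis, prostacyclin synthase, at log2 1.07.

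The Ptgs2 window has a CCACGT match 18 bases after the start, read as ACGTGG on the gene's strand. It is shown in 30 bases (chr1:150100036-150100065, plus strand), while the Ptges window has none of the motifs searched:
Ptgs2: caccactacgtcACGTGGagtccgctttac

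Of 5 prostanoid receptors tested, 1 was higher: Ptgir, the prostacyclin receptor, averaged 89.8 ± 2.44 CPM in KO-labelled and 73.8 ± 3.07 CPM in WT samples (log2 0.28, adjusted p = 3.61e-05). The lipoxygenase list had 4 of 11 genes lower and 2 higher; with pairs summed only the fall of Alox15 passed. Alox15, the 12/15-lipoxygenase, is also carried by eosinophils and measured 1.39, 1.06, 0.915 and 1.22 CPM in KO-labelled and 11.2, 12.4, 13.6 and 15.9 CPM in WT samples. Its 11.5-fold lower level stood beside the lower eosinophil markers, and their part in it was not tested.

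Cytokine mRNAs were lower in 12 of 29 genes and higher in 2, with a median of -0.19, where 11.4% of all genes tested were lower. Il10, an anti-inflammatory cytokine, measured 6.91, 6.30, 8.71 and 7.98 CPM in KO-labelled and 15.1, 15.2, 12.5 and 14.3 CPM in WT samples. The Il10 groups did not overlap (log2 -0.94 ± 0.10, adjusted p = 6.67e-08). Csf3, which encodes the granulocyte growth factor G-CSF, measured 11.9, 12.4, 15.5 and 17.3 CPM in KO-labelled and 27.8, 26.6, 26.8 and 27.8 CPM in WT samples (log2 -0.93). Il18, an IL-1 family cytokine, fell by 0.95. Tnfsf4, which encodes the T cell costimulatory ligand OX40L, was higher with overlapping groups (log2 0.58, adjusted p = 0.00874), and with pairs summed no cytokine was higher (0.186 for Tnfsf4).

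Tnf, Il6, Il1b, Il12b and Il23a were chosen after their values were seen, since they are the cytokines most often measured in such cells. Il1b measured 4388, 4427, 4713 and 4308 CPM in KO-labelled and 5738, 5727, 5640 and 5688 CPM in WT samples, lower in all KO-labelled samples (log2 -0.35 ± 0.05, adjusted p = 1.27e-05). Il12b, the p40 chain of IL-12 and IL-23, measured 482, 491, 579 and 513 CPM in KO-labelled and 732, 789, 631 and 679 CPM in WT samples (log2 -0.46). Il6 measured 360, 378, 472 and 399 CPM in KO-labelled and 592, 571, 524 and 551 CPM in WT samples (log2 -0.48 ± 0.09, adjusted p = 2.71e-04; 0.0507 with pairs summed). Neither Il12b nor Il6 overlapped between groups. Tnf overlapped at 1458, 1455, 1620 and 1492 CPM in KO-labelled and 1441, 1375, 1431 and 1543 CPM in WT samples (log2 0.06 ± 0.07, adjusted p = 0.630). Il23a, the p19 chain of IL-23, was at log2 -0.19 ± 0.10 (adjusted p = 0.189), and in replicates 1 and 2 alone it was lower (log2 -0.26, adjusted p = 0.0156).

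Chemokines were lower in 11 of 20 genes and higher in 2, with a median of -0.28; with pairs summed 3 were lower and none higher. Cxcl9, an interferon-induced attractant of T cells, measured 7.37, 6.59, 11.1 and 11.4 CPM in KO-labelled and 14.6, 18.3, 18.3 and 20.6 CPM in WT samples, which did not overlap (log2 -0.99 ± 0.12, adjusted p = 9.2e-07). Ccl24, an attractant of eosinophils, and Cxcl5, an attractant of neutrophils, fell by 0.96 and 0.94. The monocyte attractant Ccl7 was lower by log2 -0.91, while Ccl17 and Cx3cl1, which attract T cells and monocytes among others, were higher by 0.36 and 0.23. These 3 calls ended with pairs summed (adjusted p = 0.0616, 0.0998 and 0.0697), and that of Cx3cl1 also in replicates 1 and 2 alone.

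The list of NF-κB subunits and feedback genes of inflammatory signalling, not all of them NF-κB targets, had 16 of 25 lower and 1 higher, with a median of -0.21. With pairs summed 9 were lower. The phosphatases Dusp2 and Dusp1, which shut down MAP kinases, fell by 0.87 and 0.56, and Tnip2, an inhibitor of NF-κB signalling, by 0.38. Dusp4, another MAP kinase phosphatase, was higher, at 24 to 31.2 CPM in KO-labelled and 17.6 to 21.5 CPM in WT samples (log2 0.49; adjusted p = 0.0717 in replicates 3 and 4 alone). Interferon-stimulated genes were lower in 5 of 28 and higher in none, with a median of -0.18, and this count varied widely: it was 1 with pairs summed and 26 in replicates 1 and 2 alone. Isg15, a ubiquitin-like protein, averaged 606 ± 47 CPM in KO-labelled and 849 ± 47 CPM in WT samples (log2 -0.49, adjusted p = 0.0106; 0.205 summed). The RNase Isg20 fell by 0.46, and Bst2, which tethers virions to the cell, was at log2 -0.34 (adjusted p = 0.00108; 0.0899 summed).

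Dendritic cell maturation genes were lower in 9 of 17 and higher in none, with a median of -0.19, and in 3 with pairs summed. Fscn1, the actin bundler fascin of mature dendritic cells, measured 219, 206, 195 and 208 CPM in KO-labelled and 294, 313, 280 and 293 CPM in WT samples. All KO-labelled samples were lower (log2 -0.51 ± 0.07, adjusted p = 7.31e-06). The inhibitory ligand Cd200 fell by 0.40. The surface receptor Slamf1 was at log2 -0.56 (adjusted p = 0.001; 0.125 in replicates 3 and 4 alone) and the transcription factor Stat4 at log2 -0.51 (adjusted p = 6.05e-04; 0.0728 summed).

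Antigen presentation genes were counted by class. MHC class II genes were higher in 9 of 15 and lower in 2, with a median of 0.22, and in 7 higher and none lower with pairs summed. H2-DMb1, a chain of the peptide exchange factor H2-DM, measured 179, 168, 184 and 186 CPM in KO-labelled and 125, 126, 130 and 138 CPM in WT samples. H2-Aa, the α chain of I-A, measured 1768, 1765, 1799 and 1717 CPM in KO-labelled and 1340, 1415, 1300 and 1329 CPM in WT samples. Neither gene overlapped between groups, at log2 0.46 ± 0.05 (adjusted p = 4.83e-08) and 0.39 ± 0.05 (adjusted p = 2.55e-06). H2-DMb2 was higher by 0.35; it is a close copy of H2-DMb1, and how reads were shared between them is unknown. MHC class I genes were lower in 3 of 13 and higher in none, with a median of -0.14, and none passed with pairs summed.

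Receptors and signalling proteins for zymosan were lower in 9 of 24 and higher in 3, with a median of -0.10; with pairs summed 4 were lower and none higher. Cd14, a co-receptor that hands ligands to Toll-like receptors, measured 644, 630, 647 and 675 CPM in KO-labelled and 1225, 1188, 1068 and 1117 CPM in WT samples. Tlr2, a receptor for zymosan itself, measured 359, 359, 398 and 398 CPM in KO-labelled and 592, 581, 573 and 621 CPM in WT samples. Both were lower in every KO-labelled sample, at log2 -0.83 ± 0.07 (adjusted p = 4.08e-09) and -0.64 ± 0.07 (adjusted p = 3.71e-07). The C-type lectin Clec4d fell by 0.45 and Tlr1, a partner of Tlr2, by 0.25. Clec7a, which encodes the zymosan receptor Dectin-1, did not pass the test (log2 -0.21). The scavenger receptor Cd36 was higher at log2 0.31 (adjusted p = 0.00365; 0.134 summed).

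**Figure D4:**
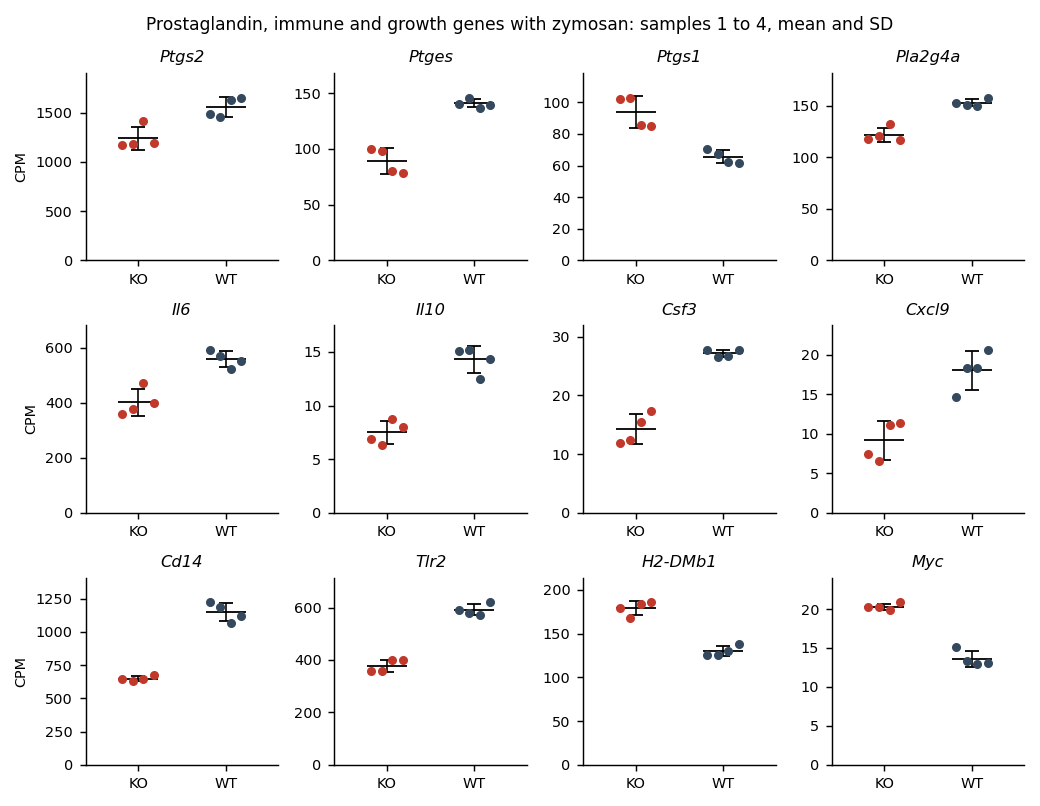
Level in CPM (vertical axis, from 0, a scale for each gene) of 12 prostaglandin, immune and growth genes in each zymosan sample, KO-labelled left and WT right, replicates 1 to 4 in order; lines are the mean and SD of 4 samples. Ptgs2, Ptges, Pla2g4a, Il6, Il10, Csf3, Cxcl9, Cd14 and Tlr2 are lower and Ptgs1, H2-DMb1 and Myc higher in every KO-labelled sample.

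Immediate early genes were lower in 7 of 21 and higher in 2, with a median of -0.08; with pairs summed 2 were lower and 1 was higher. Myc, a growth regulator, measured 20.2, 20.3, 19.9 and 20.9 CPM in KO-labelled and 15.1, 13.3, 13.0 and 13.1 CPM in WT samples, all KO-labelled samples higher (log2 0.58 ± 0.05, adjusted p = 1.02e-09). The nuclear receptor Nr4a2 fell by 0.79 at a low level. In nitric oxide and arginine metabolism 5 of 9 genes were lower and none was higher, with a median of -0.20; with pairs summed 2 were lower. Arg2, the mitochondrial arginase, fell by 0.75 and Sod2, mitochondrial superoxide dismutase, by 0.28. Nos2, inducible nitric oxide synthase, averaged 1980 ± 75.2 CPM in KO-labelled and 2588 ± 159 CPM in WT samples (log2 -0.39, adjusted p = 6.31e-04; 0.0595 summed), and Arg1, the cytosolic arginase, was at log2 -0.38 (adjusted p = 0.00143; 0.104 summed).

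Cholesterol and fatty acid genes had 3 of 25 higher and 3 lower, with a median of -0.03, and glycolysis and hypoxia genes 2 of 23 higher and 2 lower, with a median of 0.01; with pairs summed 1 gene of each list was lower and none higher. Both lists were near the shares of all genes tested, 10.6% higher and 11.4% lower. Insig1, which holds back sterol synthesis, fell by 0.36. Cyp51, a sterol demethylase, was at log2 -0.24 and Acaca, the first enzyme of fatty acid synthesis, at log2 0.27, and both calls ended with pairs summed (adjusted p = 0.0849 and 0.0659). Pfkfb3, an activator of glycolysis, averaged 179 ± 10.8 CPM in KO-labelled and 283 ± 42.2 CPM in WT samples (log2 -0.66, adjusted p = 1.81e-07). Gpi1, a glycolytic isomerase, was at log2 0.41 (adjusted p = 1.71e-04; 0.0572 summed).

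Proliferation genes were higher in 13 of 21 and lower in 1, with a median of 0.30; with pairs summed 6 were higher. Ccna2, cyclin A, measured 10.1, 11.6, 8.74 and 8.37 CPM in KO-labelled and 7.53, 7.51, 6.46 and 5.87 CPM in WT samples (log2 0.51). Replicates 1 and 2 were above 3 and 4 in each group. Ccnb1, cyclin B, was higher by 0.53 and the mitotic kinase Plk1 by 0.73, with overlapping Plk1 groups. The kinase Aurkb was at log2 0.52 (adjusted p = 0.00290; 0.0926 summed).

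Markers of other cell types showed far less eosinophil mRNA in the KO-labelled samples. Of 10 tested eosinophil genes, 9 were lower in KO-labelled samples and none was higher, with a median of -3.75. Siglecf, an eosinophil surface lectin, was the 1 that did not pass the test (log2 -0.14). None of the markers was at 0 in all samples. Epx, eosinophil peroxidase, measured 0.555, 0.984, 0.813 and 0.665 CPM in KO-labelled and 185, 196, 147 and 161 CPM in WT samples. Prg2, the major basic protein of eosinophil granules, measured 8.30, 8.85, 7.86 and 6.65 CPM in KO-labelled and 850, 875, 571 and 615 CPM in WT samples. Epx was 229-fold and Prg2 91.8-fold lower. In bulk samples fewer cells of a type and less RNA per cell cannot be told apart. The granule protein Prg3 and the eotaxin receptor Ccr3 were 68.9-fold and 15.7-fold lower, and the granulocyte transcription factor Cebpe fell by 0.42. Ear1, Ear2 and Ear6, eosinophil-associated ribonucleases, were 298-fold, 4.20-fold and 5.84-fold lower, but this family has near-identical copies and the authors' counting could have split reads between them.

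Neutrophil markers were lower in 6 of 14 and higher in 1 (3 and 0 with pairs summed), and their sum overlapped at 1825 to 2279 CPM in KO-labelled and 1991 to 2716 CPM in WT samples. Ly6g, a neutrophil surface protein, was 3.71-fold lower and Ltf, lactoferrin, 1.87-fold lower. The higher gene was Prtn3 (log2 0.65), with overlapping groups and a call that ended with pairs summed. S100a8 and S100a9, among the most abundant neutrophil markers, did not pass the test (log2 -0.10 and -0.02). Macrophage and monocyte markers were lower in 6 of 13 and higher in 1 (2 and 0 with pairs summed), and their sum did not overlap, at 2955 to 3259 CPM in KO-labelled and 3469 to 3664 CPM in WT samples. The scavenger receptor Marco fell by 0.79 and the monocyte protein Ly6c2 by 0.56. The higher gene was Cd163 (log2 1.67), with overlapping groups and a call that ended with pairs summed. Within the conventional dendritic cell markers 4 were higher and 4 lower of 13. Flt3, the growth factor receptor of dendritic cell precursors, fell by 1.00 at a low level (1.16 CPM in KO-labelled and 2.34 CPM in WT samples on average). Cd24a, a marker of cDC1-like cells, fell by 0.75, Irf8, their transcription factor, by 0.29 and Sirpa by 0.17. Batf3, needed for the same cells, was higher by 0.47, and Clec10a, Clec9a and Irf4 were higher by 0.53, 0.33 and 0.18.

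Markers of plasmacytoid dendritic cells summed to 87.4 to 96.2 CPM in KO-labelled and 79.3 to 81.7 CPM in WT samples, and 2 of 5 were higher: Cox6a2 at a low level (3.11-fold) and Tcf4 at log2 0.17 (adjusted p = 0.00558; 0.149 summed). Mast cell and basophil markers had 1 of 8 higher and 1 lower, at 43.3 to 59.5 CPM in KO-labelled and 46.7 to 73.8 CPM in WT samples, with Mcpt4 at 0 in all 8. B cell, T and NK cell, erythroid and stroma markers summed to at most 8.27 CPM in any sample. Of those 11 tested genes, 2 erythroid genes were lower and 1 stroma gene was higher, and that stroma call ended with pairs summed.

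Outside the lists, the largest rise was that of Clec4f, a C-type lectin known from Kupffer cells of the liver. It had 409, 375, 485 and 540 counts in KO-labelled samples and none in any WT sample, at least 640-fold higher against a floor of 3 counts over the WT group. Rbp4, the retinol carrier of blood, averaged 10.1 ± 3.08 CPM in KO-labelled and 2.52 ± 1.23 CPM in WT samples, 3.96-fold higher. Timp3, an inhibitor of matrix proteases, was 2.52-fold and Slc36a2, an amino acid transporter, 2.24-fold higher. Stfa1 and Klk1b26 were 2.57-fold and 2.35-fold higher, and both belong to families of near-identical copies, so reads may have been split. Commd10, a trafficking factor of the COMMD family, measured 39.9, 39.6, 41.3 and 39.4 CPM in KO-labelled and 18.1, 17.8, 18.9 and 19.4 CPM in WT samples, 2.16-fold higher with a narrow spread (log2 1.11 ± 0.05, adjusted p = 3.03e-15). The centromere protein Cenpf, the endolysosomal channel Tpcn1 and the actin crosslinker Flnc were higher by 0.88, 0.85 and 0.85 on the log2 scale.

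Among the 15 largest falls were the eosinophil genes, Pdia5, Creb3l2, Alox15 and Dnajb9, all given above. Spns3, a transporter-like membrane protein, averaged 1.34 ± 0.102 CPM in KO-labelled and 8.29 ± 1.21 CPM in WT samples, 6.15-fold lower. Perp, a membrane protein of desmosomes, averaged 0.982 ± 0.0842 CPM in KO-labelled and 5.74 ± 0.489 CPM in WT samples, 5.81-fold lower. Slc18a2, a vesicular monoamine transporter found in mast cells and basophils among others, was 3.69-fold lower.

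The KO-to-WT difference was also measured in untreated and LPS-stimulated cells, which share no samples with the zymosan comparison. There 9.95% of the tested genes were called untreated (800 lower, 5.64%, and 611 higher, 4.31%) and 33.9% with LPS (2585 lower, 18.2%, and 2220 higher, 15.6%). Of the 1624 genes lower with zymosan, 598 were also lower untreated, 36.8% of the zymosan list and 74.8% of the untreated list, and 1162 were also lower with LPS, 71.6% of the zymosan list and 45.0% of the LPS list. Of the 1510 higher genes, 376 were also higher untreated (24.9% of the zymosan list and 61.5% of the untreated list) and 921 with LPS (61.0% of the zymosan list and 41.5% of the LPS list). Called genes with opposite directions were few, 6 against untreated and 14 against LPS. The threshold was missed in both other conditions by 837 genes, which does not show that their differences were particular to zymosan.

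Creb3l2 was lower in each condition, at log2 -3.18 untreated, -4.05 with zymosan and -3.64 with LPS, and Sec24d stood at -1.67, -1.71 and -1.99 in the same order. The 6 ER lists had medians below 0 in every condition, running from -0.32 to -0.13 untreated, from -0.42 to -0.23 with zymosan and from -0.52 to -0.22 with LPS. Epx stood at log2 -7.96, -7.84 and -7.54. The cytokine and chemokine lists had medians of -0.04 and -0.10 untreated, -0.19 and -0.28 with zymosan and -0.42 and -0.58 with LPS, and interferon-stimulated genes were called lower in 0 of 28 untreated, 5 with zymosan and 20 with LPS. Cholesterol and fatty acid genes were higher in 0, 3 and 17 of 25, and proliferation genes in 0, 13 and 15 of 21, where 4.31%, 10.6% and 15.6% of all genes tested were higher. These counts and medians do not test a change between conditions.

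Whether a difference itself changed was tested with the difference of differences, zymosan minus untreated and zymosan minus LPS; both tests use the zymosan samples. The KO-to-WT log2 difference was larger with zymosan than untreated in the positive direction for 138 genes and in the negative direction for 120, 1.82% of those tested. Against LPS it was 119 and 90 genes, 1.47%. Most members of each list passed neither test. Some lists held larger shares than the 1.82% and 1.47% of all genes tested, which count either direction. Against untreated, 6 of 25 NF-κB and feedback genes, 3 of 17 chaperones and 3 of 26 PERK-ATF4 targets differed in the negative direction. So did 2 of 9 nitric oxide and arginine genes. In the positive direction 3 of 20 tRNA synthetases and 2 of 16 amino acid transporters differed from untreated. Against LPS, 3 of 17 chaperones, 3 of 15 MHC class II genes and 4 of 13 macrophage and monocyte markers differed in the positive direction. Of the lists compared above, 2 of 29 cytokines and 1 of 28 interferon-stimulated genes differed from untreated in the negative direction. In the positive direction 1 of 20 chemokines, 1 of 25 cholesterol and fatty acid genes and 4 of 21 proliferation genes did. Against LPS, 2 cytokines, 2 chemokines and 1 proliferation gene differed in the positive direction, 5 cholesterol and fatty acid genes and 1 proliferation gene in the negative direction, and no interferon-stimulated gene in either. With replicate pairs summed neither test called any gene with edgeR, while 823 and 869 genes had an unadjusted p under 0.05 and the smallest adjusted p-values were 0.159 and 0.648. Every gene named from these tests was therefore called with the alike replicates counted as separate samples. DESeq2 on the unsummed samples called 424 and 455. Leaving out 1 sample at a time left 125 to 350 genes in the test against untreated and 46 to 379 in that against LPS.

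Ptgs1 stood at log2 0.06 untreated, 0.52 with zymosan and 1.05 with LPS, so that its rise with zymosan was larger than untreated by 0.46 ± 0.09 (adjusted p = 0.00866) and smaller than with LPS by 0.53 on the log2 scale (adjusted p = 0.00820). Pla2g4a stood at 0.02, -0.33 and -0.20, a difference from untreated of -0.35 (adjusted p = 0.0209). Ptges and Ptgs2 passed neither test: Ptges stood at -0.36, -0.66 and -0.53, and Ptgs2 at -0.06, -0.33 and -0.73. Commd10 stood at 0.40, 1.11 and 1.70, differing from untreated by 0.71 (adjusted p = 8.92e-07) and from LPS by -0.59 (adjusted p = 5.66e-05).

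Myc stood at -0.05 untreated, 0.58 with zymosan and 0.78 with LPS, a difference from untreated of 0.62 ± 0.06 (adjusted p = 3.2e-06). Ccnd1, cyclin D1, measured 41.5, 42.0, 43.4 and 43.0 CPM in KO-labelled and 30.1, 31.3, 30.8 and 29.9 CPM in WT samples with zymosan. It was higher in every KO-labelled sample (log2 0.48), against -0.17 untreated and 0.16 with LPS, differing by 0.64 (adjusted p = 6.34e-05) and 0.31 (adjusted p = 0.0428). Acpp, a transmembrane phosphatase, measured 426, 424, 412 and 408 CPM in KO-labelled and 739, 738, 633 and 671 CPM in WT samples, lower in every KO-labelled sample (log2 -0.73). It stood at -0.14 untreated and -0.30 with LPS, differing by -0.60 (adjusted p = 8.56e-04) and -0.44 (adjusted p = 0.0143). Mcm6, a replication helicase subunit, stood at 0.02, 0.36 and -0.06 and passed both tests (0.34, adjusted p = 0.00920, and 0.42, adjusted p = 0.00613).

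Other genes with small p-values against untreated were Lrmp, an ER membrane protein of lymphocytes (0.37), Pcyox1, which breaks down prenylcysteine (0.42), and Mybbp1a, a nucleolar Myb partner (0.46), all larger with zymosan, and Tlr1, at log2 0.25 untreated against -0.25 with zymosan (-0.50). Dnajb9 stood at -1.45, -2.19 and -2.48, a difference from untreated of -0.74 (adjusted p = 0.00285). Creld2 stood at -0.93, -1.16 and -1.47 and passed both tests (-0.23, adjusted p = 0.0397, and 0.31, adjusted p = 0.0104). Against LPS, Kcnn3, a potassium channel, stood at -0.57 with zymosan and 0.31 with LPS (-0.88, adjusted p = 0.00613), and St3gal5, which makes the ganglioside GM3, at 0.14 and -0.42 (0.56, adjusted p = 0.00790); with zymosan it passed in replicates 1 and 2 alone (adjusted p = 0.0345) and in 3 and 4 alone (0.0360), but not in all 4. Cxcl9 was at -0.99 with zymosan and -1.65 with LPS (0.66, adjusted p = 0.0360), and Il6 at -0.48 and -0.98 (0.51, adjusted p = 0.0410).

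**Figure D5:**
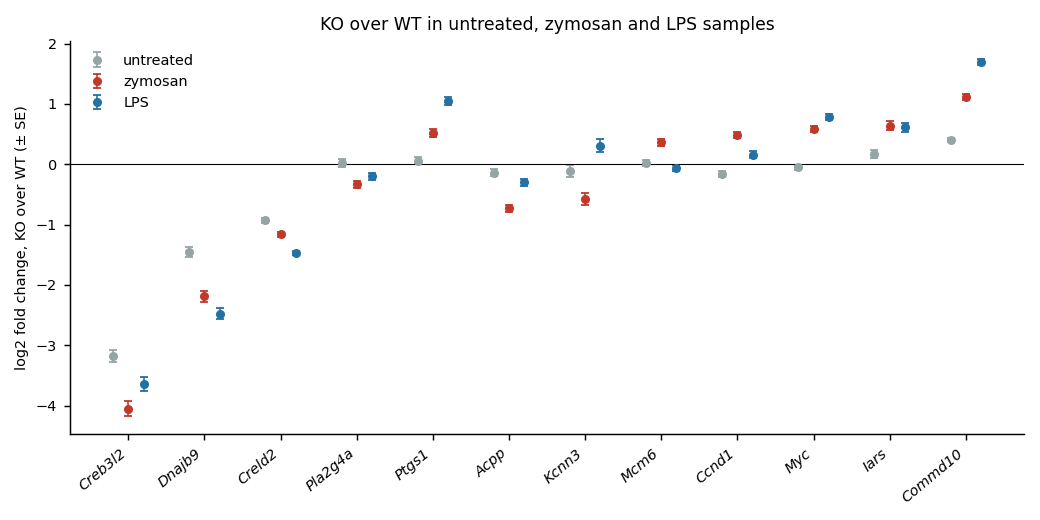
Log2 fold change, KO-labelled over WT (vertical axis; bars are 1 SE), of 12 genes (horizontal axis) in untreated, zymosan and LPS samples, 4 KO-labelled and 4 WT samples in each. Creb3l2, Dnajb9 and Creld2 lie below 0 in each condition, Ptgs1, Myc and Commd10 have their lowest value untreated and their highest with LPS, and Acpp, Ccnd1 and Mcm6 lie farthest from 0 with zymosan.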

How the data were processed

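mRNA libraries of bone-marrow-derived dendritic cells were sequenced; the 6 groups hold 4 samples each. Per the submitters' processing notes, reads were processed with Bowtie2, RSEM 1.2.31 and DESeq2 on mm10. The deposited table holds whole-number counts per gene, not normalised; counting strand and the rounding step are not given in the sources used here. Ensembl identifiers were named with GENCODE M21 (GRCm38), and 96.6% of 38887 matched; 14809 genes had no count in any sample.

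From the counts, edgeR 4.0.16 (R 4.3.3) fitted all 24 samples with TMM library sizes, its default filter on low counts (14188 genes kept) and a mean per group, and the quasi-likelihood test gave each contrast; p-values were adjusted by Benjamini-Hochberg over all genes tested, and 0.05 was the threshold. The common biological coefficient of variation was 0.0686 with 18 residual degrees of freedom. CPM are counts per 1000000 of the TMM-scaled library. Standard errors are the log2 fold change over the root of F. The script was tested on simulated counts.

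Lists, members and tests were chosen with earlier results of these data known. Genes were named by a rule: the fixed Ern1, Xbp1 and prostaglandin E2 genes; up to 4 called members with the largest change in each of the pathway lists and up to 2 against the majority; called and abundant cell markers; the 15 largest rises and falls among genes of at least 5 CPM without overlap; and the smallest p-values in the tests against the other conditions. Hspa5, Hsp90b1, Tnf, Il6, Il1b, Il12b, Il23a, Atf4, Ddit3, Atf5, Siglecf and Clec7a were added after their values were seen. Alternatives were DESeq2 1.42.0, its size factors, no filter, the groups compared alone, the replicate number as a block, alike replicates summed, either replicate pair alone, and leaving out each sample. The interferon list's Gbp5 was not analysed here. Promoter windows and starts are RefSeq's (GRCm38.p6), and the Xbp1 transcript is GENCODE's.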

Additional observations from a re-analysis of the deposited data

Results flagged for a closer look

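Single samples stood apart from the other 3 of their group in 12 of the 304 groups of 4 examined, by Dixon's criterion at 95%, which chance alone meets in about 1 in 20 groups. Among the KO-labelled samples these were replicate 1 for Eif2ak3 (11.3 CPM, others 10.2 to 10.3), replicate 2 for Kdelr3 (0.718 CPM, others 1.01 to 1.02) and Manf (73.2 CPM, others 78.2 to 78.9), replicate 3 for Ptgs2 (1414 CPM, others 1174 to 1193) and Bet1 (13.2 CPM, others 11.8), and replicate 4 for Ccl24 (5.62 CPM, others 7.02 to 7.15). Among the WT samples they were replicate 1 for Bet1 (28.5 CPM, others 24.2) and Myc (15.1 CPM, others 13.0 to 13.3), replicate 2 for Isg15 (919 CPM, others 818 to 834), and replicate 3 for Gpi1 (1940 CPM, others 2073 to 2097), Sec23b (133 CPM, others 138 to 139) and Sod2 (944 CPM, others 997 to 1007).

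With alike replicates summed no gene passed edgeR's test of a changed difference. With them separate, the KO-to-WT log2 difference of 57 results, from 152 genes examined, was not the same with zymosan as in another condition. It was larger with zymosan than untreated, in the positive direction, for cell cycle genes (Plk1 0.79, Cenpf 0.76, Ccnd1 0.64, Ccnb1 0.52, Mcm6 0.34), for Commd10 (0.71) and Myc (0.62), for amino acid transporters and tRNA synthetases (Vars 0.50, Iars 0.47, Slc1a5 0.46, Farsb 0.43, Slc38a1 0.37), for nucleotide and ribosome synthesis genes (Gart 0.50, Polr1a 0.46, Mybbp1a 0.46, Wdr55 0.42, Atic 0.33), and for Ptgs1 (0.46), Pcyox1 (0.42), Lrmp (0.37) and Cx3cl1 (0.33).

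In the negative direction the difference from untreated was found for ER genes (Creb3l2 -0.87, Dnajb9 -0.74, Selenos -0.41, Bet1 -0.37, Manf -0.31, Creld2 -0.23, Spcs2 -0.22), for stress and metabolic genes (Aldh1l2 -0.97, Nupr1 -0.59, Pfkfb3 -0.55), for feedback genes (Dusp2 -0.74, Dusp1 -0.56, Tnip2 -0.33), for receptors and immune effectors (Tlr1 -0.50, Nos2 -0.44, Cd14 -0.43, Pla2g4a -0.35, Sod2 -0.30, Il1b -0.29) and for Acpp (-0.60). Against LPS the difference was positive for Cxcl9 (0.66), St3gal5 (0.56), Il6 (0.51), Polr1a (0.46), Mcm6 (0.42), Wdr55 (0.38), Hyou1 (0.36), Ccnd1 (0.31), Creld2 (0.31), H2-DMb1 (0.26), Sec61a1 (0.25) and Tcf4 (0.24), and negative for Kcnn3 (-0.88), Commd10 (-0.59), Ptgs1 (-0.53) and Acpp (-0.44).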

How the results depend on the processing

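The direction of the 152 genes examined was the same under each of the 16 alternatives. Of the resulting calls 2376 stayed on their side of the threshold, while 51 fell below it and 5 rose above it. Summing alike replicates gave 25 of the 51, and these 25 are given beside their genes. Clec10a, Clec9a, Irf4, Sirpa, Cd163, Prtn3, S100a8, S100a9 and Ptgis are named in the text but were not among the genes examined in this way. The same holds for Atf4, Ddit3, Atf5, Siglecf and Clec7a. Summing gave 394 higher and 570 lower genes (2 sums a group, 6 residual degrees of freedom), with 40.9% of the called genes higher against 48.2% of the main calls, and 0 genes in both tests against the other conditions. Replicates 1 and 2 alone gave 2509 lower genes. The test against untreated, 258 genes, gave 424 with DESeq2, 154 with the groups compared alone and 1206 in replicates 1 and 2 alone. The test against LPS, 209 genes, gave 455 with DESeq2, 1641 in replicates 1 and 2 alone and 611 in replicates 3 and 4 alone. Leaving out 1 sample gave 125 to 350 and 46 to 379 genes: the first fell to 154 and 125 without KO-labelled zymosan replicates 1 and 2, and the second to 54 and 67 without WT zymosan replicates 1 and 2, to 66 and 50 without KO-labelled zymosan replicates 3 and 4, to 87, 97 and 47 without WT LPS replicates 1, 3 and 4 and to 78 and 46 without KO-labelled LPS replicates 1 and 2, and rose to 379 without WT zymosan replicate 4; the cause was not tested. Same-numbered samples were not treated as pairs: their deviations correlated at 0.03, 0.12, 0.06 and 0.07, and 2 of the 4 correlated best with their own number. KO-labelled replicates 1, 2, 3 and 4 correlated best with WT replicates 2, 2, 3 and 3, each within the same alike pair of numbers. A difference between the alike pairs that both genotypes share was not modelled in the main fit or in the summed fit. With the replicate number as a block the counts were 1808 higher and 1980 lower, 506 against untreated and 1003 against LPS, and none of the 152 genes changed its call. Depth limits the genes under about 1 CPM, such as Cth in both groups and Pdia5 in KO-labelled samples, and whether replicates 1 and 2, or 3 and 4, are repeats of the same culture limits every p-value.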

Other observations

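Genes that build ribosomes and nucleotides were chosen for this description after their values were seen, so their counts are no support for a pattern. Of 46 ribosome biogenesis genes 28 were higher and 1 was lower in KO-labelled cells with zymosan, with a median log2 fold change of 0.25; with alike replicates summed 10 were higher and 1 was lower. Polr1a, the largest subunit of RNA polymerase I, measured 18.9, 19.6, 19.4 and 22.2 CPM in KO-labelled and 13.8, 13.6, 15.1 and 14.8 CPM in WT samples, which did not overlap (log2 0.48 ± 0.08, adjusted p = 4.11e-05). It stood at 0.02 untreated and 0.03 with LPS. Wdr55, a nucleolar protein of rRNA synthesis, was higher by 0.47, against 0.05 untreated and 0.09 with LPS. The list as a whole had no called gene and a median of -0.06 untreated, and 17 higher and 2 lower genes with a median of 0.13 with LPS.

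Of 17 purine and pyrimidine synthesis genes 12 were higher and 2 lower, with a median of 0.28 (6 and 1 with alike replicates summed). Gart, an enzyme of purine synthesis, measured 23.6, 22.6, 21.4 and 23.5 CPM in KO-labelled and 16.9, 16.6, 16.6 and 16.5 CPM in WT samples, all KO-labelled samples higher (log2 0.45 ± 0.06, adjusted p = 5.97e-06). Atic, which closes the purine ring, was higher by 0.37. Impdh1, which opens guanine nucleotide synthesis, was lower by log2 -0.58. Untreated, 1 gene of this list was higher and 2 were lower, and with LPS 10 were higher and 2 were lower.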
